A study of Mus musculus with 6 samples.

Results

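The genes described here are 45 splicing regulators, taken from the 19320 genes of an RNA-seq table of mouse heart. They are every gene of the table named as an SR protein (Srsf, 11 genes) or an hnRNP (20 genes), without rows named as pseudogenes. To these were added the 3 DBHS genes Sfpq, Nono and Pspc1, and 11 regulators of muscle and other splicing (Rbm20, Rbm24, Rbfox1, Rbfox2, Celf1, Celf2, Mbnl1, Mbnl2, Ptbp1, Tra2a and Tra2b). The set was chosen because Sfpq fell after transverse aortic constriction, so the difference between constricted and sham hearts is given as a description. Counts of genes past the threshold of the fit are printed for that contrast, but they are drawn from the values behind the choice and nothing is read from them.

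Messenger RNA was sequenced from 3 groups of 2 samples, all labelled heart and 2 weeks. The groups were wild-type mice with sham surgery, wild-type mice with transverse aortic constriction (TAC, a band that narrows the aorta and loads the left ventricle), and mice labelled Snai1 knockdown with TAC. The design text names shSnai1, a short hairpin RNA against Snai1. Its promoter, carrier and target cells, the mouse strain, sex and age, and any TAC group with a control hairpin are not stated in those labels, and the knockdown cannot be told apart from any effect of a carrier. No label says whether a group holds separate mice, so each p-value reflects only the spread from library to library, which may be technical.

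Pre-mRNA splicing joins exons by the spliceosome, and the choice of exons is set by proteins that bind the transcript. SR proteins carry RNA recognition motifs and a tail rich in arginine and serine and mostly promote the use of an exon, while many hnRNPs repress it. In heart muscle, Rbm20, Rbm24 and members of the Rbfox, Celf and Mbnl families set the isoforms of titin, calcium channels and other sarcomere and calcium cycling proteins. Many SR and hnRNP genes also lower their own output by splicing in a segment that sends their transcript to nonsense-mediated decay. In the GENCODE annotation of mm10, 9 of the 11 SR genes and 10 of the 20 hnRNP genes had at least 1 transcript classed as a target of that decay, against 25.7% of the 15856 protein-coding genes of the table. So had 5 of the 11 muscle and other regulators and 1 of the 3 DBHS genes. The median number of annotated transcripts was 7 for SR and 8 for hnRNP genes, against 5 for all protein-coding genes. The part of transcript number in these shares was not tested. The files hold 1 value per gene, so none of the values below measures splicing itself or separates such transcripts from coding ones.

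Sfpq, Nono and Pspc1 encode the DBHS proteins, which pair with each other and with the noncoding RNA Neat1 in nuclear bodies called paraspeckles. Their promoters are shown because the family holds the gene by which the set was chosen. Each run is the RefSeq window of the GRCm38.p6 build from 250 bases before to 50 after the start that RefSeq gives the gene. GENCODE starts Nono farther upstream, at 101429318, so the window of Nono lies inside the gene by that annotation. Capitals mark CCAAT or its reverse complement ATTGG, the box bound by the factor NF-Y.
Sfpq promoter, chr4:127021051-127021350, plus strand: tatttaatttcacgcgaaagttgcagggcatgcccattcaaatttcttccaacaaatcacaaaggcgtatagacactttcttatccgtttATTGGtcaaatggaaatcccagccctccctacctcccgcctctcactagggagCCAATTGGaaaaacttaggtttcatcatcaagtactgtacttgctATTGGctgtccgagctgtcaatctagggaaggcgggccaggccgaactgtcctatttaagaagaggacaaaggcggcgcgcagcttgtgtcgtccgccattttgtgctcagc
Nono promoter, chrX:101429401-101429700, plus strand: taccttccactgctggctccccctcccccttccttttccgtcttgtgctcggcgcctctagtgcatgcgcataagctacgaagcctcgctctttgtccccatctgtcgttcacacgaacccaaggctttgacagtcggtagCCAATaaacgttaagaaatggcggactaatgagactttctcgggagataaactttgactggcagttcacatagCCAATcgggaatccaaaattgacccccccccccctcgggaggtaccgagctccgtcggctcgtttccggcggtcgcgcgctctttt
Pspc1 promoter, chr14:56778269-56778568, minus strand: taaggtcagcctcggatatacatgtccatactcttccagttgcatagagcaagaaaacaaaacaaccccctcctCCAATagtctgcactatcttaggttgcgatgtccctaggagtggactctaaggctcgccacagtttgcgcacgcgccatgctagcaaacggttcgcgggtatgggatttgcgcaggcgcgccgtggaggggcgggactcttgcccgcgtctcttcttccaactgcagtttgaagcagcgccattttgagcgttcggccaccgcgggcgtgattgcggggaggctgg

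The Sfpq window held 4 such boxes, of which a pair overlap on opposite strands, the Nono window 2 and the Pspc1 window 1. The GC content was 48.0% for Sfpq, 55.7% for Nono and 57.0% for Pspc1. Over the set, 41 of the 45 genes had an entry in the RefSeq table, with 59 windows between them. CCAAT, read on both strands, occurred in 28 of the 59 windows (47.5%), of 24 genes, against 37.4% of all 32851 windows. CAGGTG, a letter sequence that Snail proteins bind, occurred on either strand in 6 of the 59 (10.2%) against 20.2% of all windows. Those 6 windows belong to Hnrnpf, Hnrnph3, Rbm24, Srsf1, Srsf2 and Srsf3, and none of the 3 DBHS windows held it. GCATGCGC, the core of the NRF1 site, was in 4 windows (6.78%, against 2.71% of all), of 4 genes. CCGGAAG, a core of ETS factor sites, was in 10 windows (16.9%, against 8.86%), but these belong to only 6 genes. A match is a run of letters and not a shown binding site.

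Depth ran from 14835957 reads (sham replicate 1) to 18247812 (knockdown replicate 2). The libraries were recovered from deposited columns that behave as 60:40 and 40:60 mixtures of the libraries of a group. Levels are given as reads per 1000000 of the library (CPM), where 3 reads make 0.164 to 0.202 CPM. Snai1 stood at 5.12 and 3.45 CPM in sham, 4.48 and 4.24 after TAC and 3.41 and 2.74 in knockdown, and its difference between knockdown and TAC did not pass (log2 -0.51 ± 0.33 SE, limma adjusted p = 0.999). Markers of cardiomyocytes, the muscle cells of the heart, summed to between 88386 and 100610 CPM, and none of the 7 was at 0 in any library. All 7 macrophage markers were higher in both TAC libraries than in both sham libraries, as were 23.8% of all genes tested. The sum of these markers was 205 and 201 CPM in sham, 271 and 311 after TAC and 384 and 276 in knockdown. The 12 heat shock genes summed to 4508 and 5292 CPM in sham, 3916 and 3573 after TAC and 3924 and 3754 in knockdown. Of the 12, 10 were lower in both TAC libraries than in both sham libraries, as were 16.3% of all genes tested. The 8 erythroid and platelet markers of the table summed to 1789 and 951 CPM in sham, 875 and 801 after TAC and 767 and 1136 in knockdown. Of these 8, 7 were lower in both TAC libraries than in both sham libraries, as were 16.3% of all genes tested. In both knockdown libraries 4 were lower than in both sham libraries, as were 13.9% of all genes tested. Of the 6 lymphocyte markers, with a sum of 11.1 CPM in sham replicate 1 and 1.11 to 2.95 elsewhere, up to 2 were at 0 in a library. The 18 immediate early genes, which respond fast to stimulation, summed to 562 and 664 CPM in sham, 455 and 423 after TAC and 498 and 414 in knockdown. The part of these cells, of heat shock and of immediate early genes in the values below was not tested.

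Of the 45 genes, 44 were tested. Srsf12, an SR protein that opposes the others in some exons, had 8 reads in TAC replicate 1, 2 in knockdown replicate 2 and 0 in the other 4 libraries, and was removed by the filter on low counts. The mean levels of the 44 ran from 9.76 CPM for Srsf4 to 419 for Hnrnpa2b1. Per kilobase of annotated exon, the levels in sham were highest for Rbm24 (85.9 CPM per kilobase), Hnrnpa2b1 (64.0), Hnrnpab (49.1), Rbm20 (42.1) and Sfpq (29.1). At the other end stood Hnrnpr (2.09) and Hnrnpll (2.12). Exon length here counts every annotated exon of a gene, which lowers the value of genes with long, rarely used exons. The levels were steady across the 6 libraries: the highest library exceeded the lowest by a median of 1.29 times, and by more than 1.5 times for 4 genes, Rbfox1 (2.02), Sfpq (1.76), Tra2a (1.72) and Srsf5 (1.53). The hnRNP gene Hnrnpu, which encodes a chromatin scaffold protein needed for normal splicing in mouse heart, varied least, by 1.07 times. In bulk samples fewer cells of a type and less RNA per cell cannot be told apart.

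Sfpq (ENSMUSG00000028820.13, chromosome 4 from 127021324 to 127037013, plus strand, GRCm38) had 2244 and 2165 reads in sham, 1606 and 1478 after TAC and 1578 and 1761 in knockdown. This made 151 and 124 CPM in sham, 88.8 and 85.8 after TAC and 103 and 96.5 in knockdown. Every sham library lay above every knockdown library, and every knockdown library above every TAC library. The TAC mean was 1.57-fold below sham (87.3 ± 2.07 against 138 ± 19.0 CPM, SD, n = 2; log2 -0.65 ± 0.12 SE). The difference between knockdown and TAC was 0.20 ± 0.12 on the log2 scale and did not pass the test (limma adjusted p = 0.999). The difference between knockdown and sham was -0.46 ± 0.12 and did not pass (limma adjusted p = 0.215). That comparison shares the sham libraries with the one by which the gene was chosen. The annotation places the gene Gm12940 over part of the Sfpq locus on the same strand, so reads there may belong to either. The deposited values include no row for Gm12940. In the fit to all 14447 genes tested, Sfpq was the 1 member past the threshold in TAC against sham, where 0.0761% of all genes were called lower and 0.0831% higher. Since the fall of Sfpq chose the set, this is no test of it. Its log2 fold change ran from -0.51 without sham replicate 1 to -0.79 without sham replicate 2.

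Nono encodes the partner of SFPQ in most of its complexes. Its level was 110 and 106 CPM in sham, 93.1 and 101 after TAC and 106 and 100 in knockdown, a narrower range than that of Sfpq, with TAC just below sham (log2 -0.16 ± 0.11). Pspc1, the gene of paraspeckle component 1, had 19.3 and 19.99 CPM in sham, 21.001 and 19.4 after TAC and 21.8 and 21.9 in knockdown. Its knockdown libraries lay above the other 4, by 0.11 ± 0.16 over TAC on the log2 scale, which did not pass the test (limma adjusted p = 0.999).

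**Figure D1:**
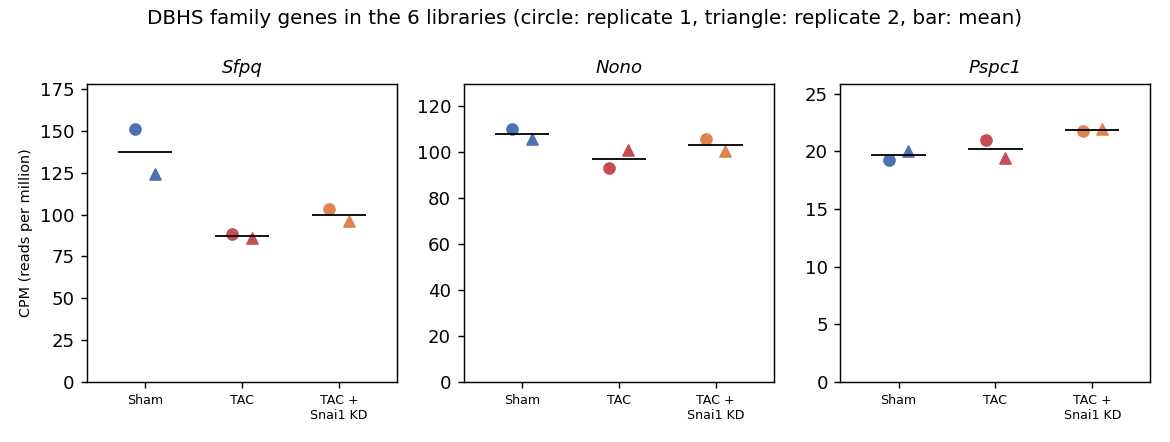
Levels of the 3 DBHS genes in CPM (vertical axes, from 0) in the libraries of each group, with circles for replicate 1, triangles for replicate 2 and bars for the group mean of 2. The sham libraries of Sfpq, at 151 and 124 CPM, stand above the other 4, while Nono and Pspc1 stay within 93.1 to 110 and 19.3 to 21.9 CPM.

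Among the muscle regulators, Rbfox1 differed most between libraries. RBFOX1 promotes or represses exons by its position beside them and has been found reduced in failing hearts of mice and people. Its level was 80.8 and 78.7 CPM in sham, 70.6 and 39.95 after TAC and 66.8 and 58.9 in knockdown. Both TAC and both knockdown libraries lay below both sham libraries, and TAC replicate 2 stood apart from TAC replicate 1. The log2 fold change of TAC over sham was -0.59 ± 0.19, and it was -0.996 without TAC replicate 1 and -0.17 without TAC replicate 2. With knockdown it differed from TAC by 0.24 ± 0.19 and from sham by -0.35 ± 0.19, neither past the test (limma adjusted p = 0.999 and 0.659). Without TAC replicate 2 the first of these turned to -0.17.

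Its paralog Rbfox2, needed for splicing in the developing and adult mouse heart, had 117 and 97.9 CPM in sham, 134 and 130 after TAC and 124 and 135 in knockdown. All 4 TAC and knockdown libraries lay above both sham libraries. The log2 fold changes were 0.31 ± 0.12 for TAC over sham and 0.27 ± 0.12 for knockdown over sham (limma adjusted p = 0.522).

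Rbm24, a muscle protein required in mice for sarcomere assembly, had 308 and 292 CPM in sham, 258 and 257 after TAC and 254 and 265 in knockdown. The sham libraries were again apart from the other 4, with log2 fold changes of -0.22 ± 0.10 for TAC and -0.21 ± 0.10 for knockdown against sham (limma adjusted p = 0.578 for the second). Rbm20, the repressor of titin exons whose mutations cause dilated cardiomyopathy in people, had 299 and 272 CPM in sham, 330 and 267 after TAC and 257 and 295 in knockdown, and its groups overlapped.

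CELF and MBNL proteins act against each other on many exons of the maturing heart. Celf1 had 119 and 116 CPM in sham, 127 and 122 after TAC and 115 and 125 in knockdown. Celf2 had 82.4 and 79.0 in sham, 84.9 and 96.4 after TAC and 82.7 and 89.1 in knockdown. For both, TAC lay above sham without overlap, by no more than 0.17 ± 0.12 on the log2 scale, the value of Celf2.
Mbnl1 had 211 and 184 CPM in sham, 162 and 181 after TAC and 198 and 178 in knockdown, a TAC level just below sham (log2 -0.20 ± 0.11). Mbnl2 had 314 and 289 in sham, 278 and 297 after TAC and 283 and 297 in knockdown, with groups that overlapped. None of the 4 genes passed the test between knockdown and TAC (limma adjusted p = 0.999 for each).

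Ptbp1, a repressor of neuronal and muscle exons, had 45.97 and 36.01 CPM in sham, 37.6 and 46.9 after TAC and 45.6 and 37.9 in knockdown, so that it varied as much within groups as between them. The SR-like activators Tra2a and Tra2b had unlike patterns. Tra2a had 33.9 and 35.8 CPM in sham, 38.7 and 38.1 after TAC and 44.2 and 25.8 in knockdown, where its highest and its lowest library are those of 1 group. Tra2b had 32.0 and 34.8 in sham, 26.6 and 28.9 after TAC and 33.5 and 27.7 in knockdown, with TAC below sham (log2 -0.27 ± 0.15).

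**Figure D2:**
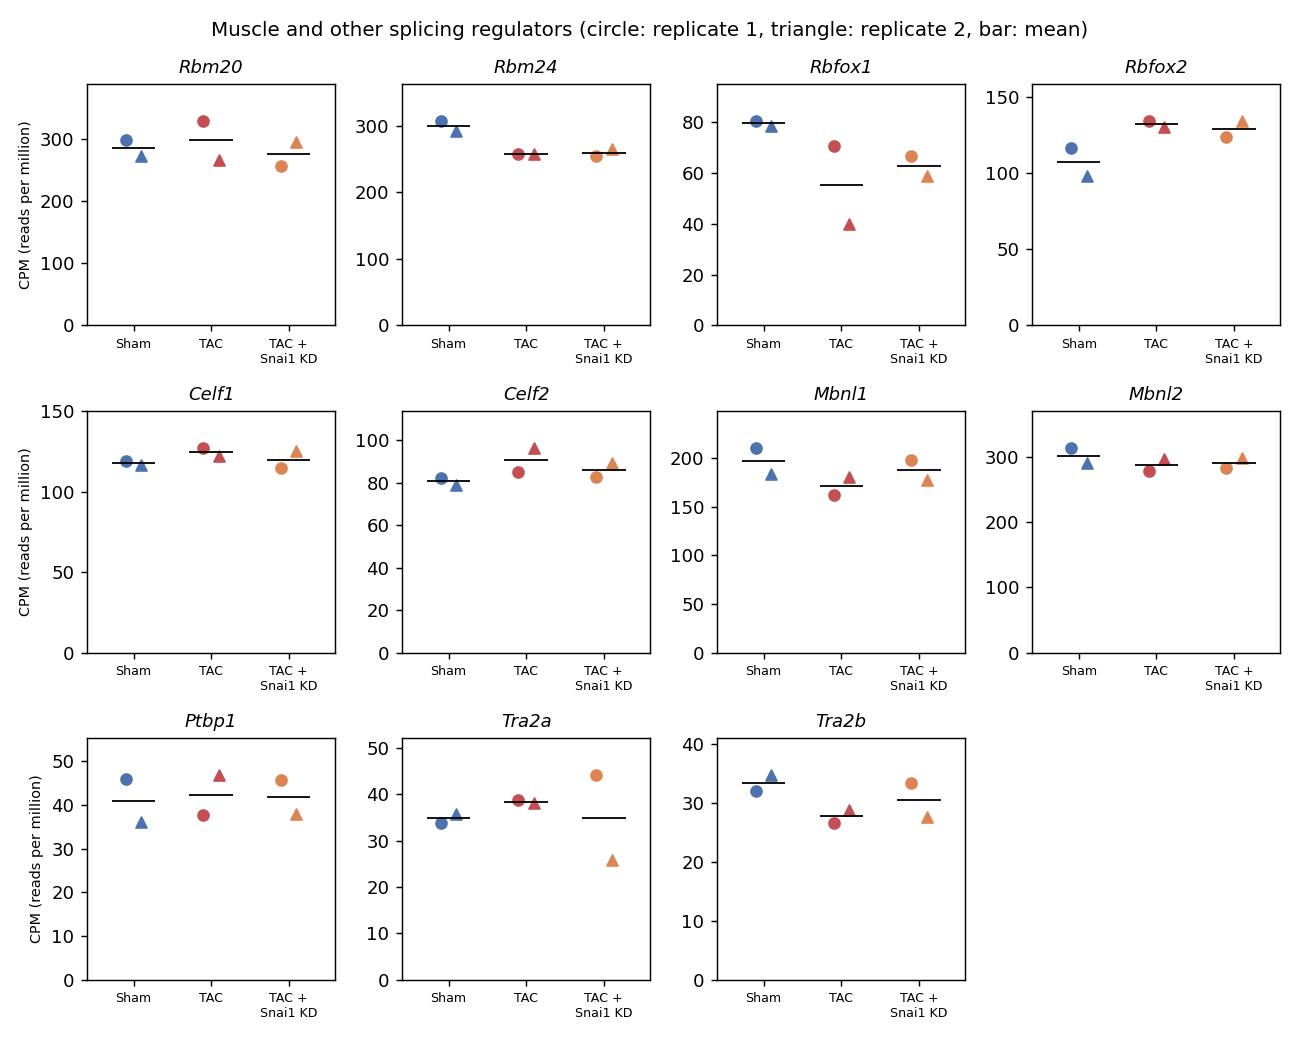
Levels of the 11 muscle and other splicing regulators in CPM (vertical axes, from 0) by group, with circles for replicate 1, triangles for replicate 2 and bars for the group mean of 2. Rbfox1 is lowest in TAC replicate 2 at 39.95 CPM, Rbm24 is highest in both sham libraries at 308 and 292, and Tra2a spans 25.8 to 44.2 within the knockdown group.

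None of the 10 tested SR genes and none of the 20 hnRNP genes was called in any comparison. In TAC against sham, log2 fold changes of the SR genes ran from -0.22 to 0.15 with a median of -0.04, and those of the hnRNP genes from -0.36 to 0.31 with a median of -0.04. The median of all genes tested was 0.04. Srsf3, the smallest SR protein, which couples splicing to export, had 60.1 and 61.7 CPM in sham and 50.1 and 54.3 after TAC (log2 -0.22 ± 0.16). With knockdown its libraries had 67.7 and 45.6, the highest and the lowest of the 6. Srsf5, whose level was highest in knockdown, had 89.8 and 77.0 CPM in sham, 87.7 and 97.7 after TAC and 117 and 90.3 in knockdown. Its log2 fold change of knockdown over sham, 0.31 ± 0.14, did not pass (limma adjusted p = 0.548) and was 0.12 without knockdown replicate 1.

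Srsf1, the founding SR protein, which mice need for the postnatal switch of calcium-handling isoforms in heart muscle, had 92.8 and 100.3 CPM in sham, 80.8 and 99.99 after TAC and 89.9 and 76.6 in knockdown. Its log2 fold change of knockdown over sham was -0.22 ± 0.13 and did not pass (limma adjusted p = 0.683). Srsf10, a splicing repressor when dephosphorylated, had 39.5 and 42.2 in sham, 36.7 and 36.9 after TAC and 38.1 and 33.0 in knockdown (log2 -0.20 ± 0.13 for knockdown against sham, limma adjusted p = 0.720). Srsf11 had 74.5 and 63.5 CPM in sham, 63.8 and 75.95 after TAC and 71.98 and 58.4 in knockdown, with groups that overlapped in every comparison.

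Of the hnRNP genes, Hnrnpa1, the gene of an abundant exon repressor, differed most in the downward direction. It had 35.5 and 34.3 CPM in sham, 25.1 and 29.5 after TAC and 34.02 and 28.1 in knockdown, with both TAC libraries below both sham libraries (log2 -0.36 ± 0.15). Between knockdown and TAC it overlapped (log2 0.18 ± 0.15, limma adjusted p = 0.999), and knockdown was below sham by -0.18 ± 0.15 (limma adjusted p = 0.787). Counts of Hnrnpa1 are uncertain, since the gene has processed copies in the genome and the counting tool is not given in the sources used here.
Hnrnpll, known for exon skipping in the CD45 transcript of T cells, was higher in TAC and knockdown than in sham, with 24.9 and 24.5 CPM in sham, 31.6 and 29.8 after TAC and 29.3 and 29.2 in knockdown. The log2 fold changes against sham were 0.31 ± 0.14 after TAC and 0.24 ± 0.14 in knockdown (limma adjusted p = 0.666 for the second). Hnrnpa0, which binds AU-rich RNA, had 49.3 and 56.7 in sham, 63.3 and 61.8 after TAC and 56.4 and 55.9 in knockdown. Its TAC libraries lay above the other 4 (log2 0.24 ± 0.12 over sham, and -0.16 ± 0.12 for knockdown over TAC, limma adjusted p = 0.999).

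Hnrnpm had 99.8 and 102.7 CPM in sham, 98.9 and 123 after TAC and 96.8 and 98.0 in knockdown, and Hnrnpl, which binds CA repeats, 153 and 147, 158 and 173, and 175 and 139. In the first the difference between knockdown and TAC (log2 -0.18 ± 0.12, limma adjusted p = 0.999) rested largely on TAC replicate 2. Hnrnpdl and Hnrnpd, close paralogs of which the second also directs mRNA decay, each had a high sham replicate 1 and a high knockdown replicate 1. Hnrnpdl had 118 and 93.0 CPM in sham, 92.0 and 94.2 after TAC and 115 and 95.4 in knockdown. Hnrnpd had 69.4 and 51.2 in sham, 52.2 and 57.3 after TAC and 69.5 and 57.2 in knockdown, a log2 fold change over TAC of 0.20 ± 0.15 (limma adjusted p = 0.999).
Hnrnpa3 had 36.8 and 35.1 CPM in sham, 36.3 and 36.7 after TAC and 44.8 and 37.2 in knockdown. Hnrnpk, a binder of C-rich RNA and DNA, had 117 and 112, 121 and 115, and 128 and 124. Knockdown was highest for both, by 0.18 ± 0.14 and 0.14 ± 0.11 over sham on the log2 scale, without passing (limma adjusted p = 0.752 and 0.755). Hnrnph3 had 46.5 and 43.1 in sham, 34.98 and 45.99 after TAC and 41.04 and 39.1 in knockdown, with a log2 fold change of -0.16 ± 0.15 for knockdown against sham (limma adjusted p = 0.799). The other 9 hnRNP genes (Hnrnpa2b1, Hnrnpab, Hnrnpc, Hnrnpf, Hnrnph1, Hnrnph2, Hnrnpr, Hnrnpul1 and Hnrnpul2) and Hnrnpu gave no call either, and the highest library of any hnRNP gene exceeded its lowest by 1.07 to 1.41 times.

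**Figure D3:**
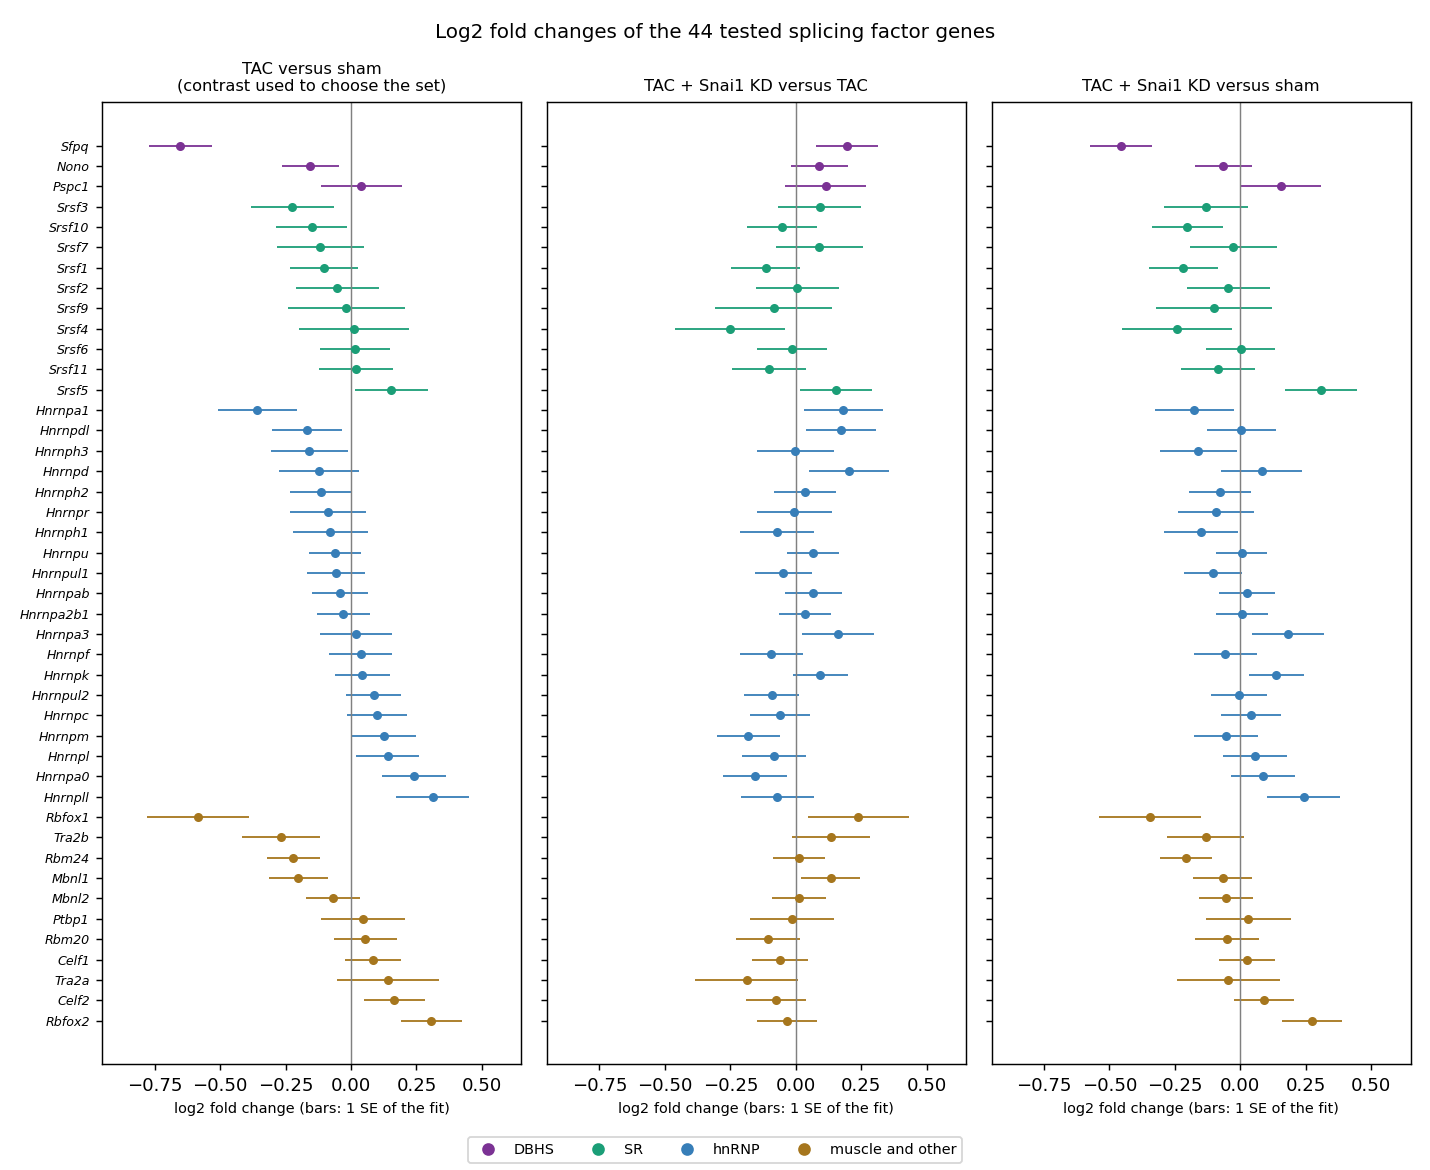
Log2 fold changes of the 44 tested genes (points) with 1 SE of the fit (bars) in the 3 comparisons, grouped by family and ordered within a family by TAC versus sham. The first and last panels share the sham libraries and the first and middle panels the TAC libraries. Sfpq at -0.65 and Rbfox1 at -0.59 lie farthest from 0 in the first panel, and in the middle panel the points lie between -0.25 and 0.24.

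Over the set, 24 genes had a negative and 20 a positive log2 fold change in TAC against sham, where 43.8% of all genes were negative, with a median of -0.04. The groups did not overlap for 11 lower and 8 higher genes, where 16.3% and 23.8% of all genes tested were apart in these directions. Since this contrast chose the set, nothing is read from these counts. Between knockdown and TAC, 0 of the 44 genes were called in either direction, where 0.0% of all genes were called higher and 0.0% lower. None of the 44 had an unadjusted p below 0.05 by limma, where 1.27% of all genes were higher and 0.81% lower at that level, and limma-voom also called 0. Of the 44, 23 had a negative value, as did 45.6% of all genes. The groups did not overlap for 7 higher and 5 lower genes, against 16.0% and 12.4% of all genes. The log2 fold changes ran from -0.25 to 0.24 with a median SE of 0.13, and a p that misses the threshold does not show that the groups were alike.

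Between knockdown and sham, 0 of the 44 were called, where 0.138% of all genes were called higher and 0.104% lower, and limma-voom also called 0. Sfpq (lower), Rbfox2 and Srsf5 (both higher) had an unadjusted p below 0.05 by limma, where 6.02% of all genes were higher and 2.78% lower at that level. A negative value was found for 26 of the 44 and 40.4% of all genes. The groups did not overlap for 7 higher and 10 lower genes, against 25.5% and 13.9% of all genes. The median over the 44 was -0.05, beside 0.05 over all genes tested. That median was 0.02 without sham replicate 1 and 0.03 without knockdown replicate 2.

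Most SR genes differed in 1 direction between the libraries of TAC and of knockdown, but not between those of sham. In TAC, 9 of the 10 SR genes were higher in replicate 2 than in replicate 1, with a median difference of 0.23 on the log2 scale (replicate 1 minus replicate 2, -0.23), where 59.8% of all genes tested were higher in replicate 2 with a median of -0.07. With knockdown, 9 of the 10 were higher in replicate 1, with a median of 0.31, where 60.6% of all genes were higher in replicate 1 with a median of 0.07. In sham, 5 of the 10 were higher in replicate 1. Summed over the family, SR genes stood at 553 and 534 CPM in sham, 493 and 570 after TAC and 592 and 475 in knockdown, so that the highest and the lowest library are those of the knockdown group. Srsf2, the SR protein that also aids transcript elongation, had 63.7 and 43.6 CPM in knockdown against 57.4 and 51.6 in sham and 52.8 and 52.1 after TAC. Srsf7, a close relative of Srsf3, had 39.3 and 30.1 in knockdown, 32.2 and 38.2 in sham and 29.1 and 35.8 after TAC. Srsf6 had 72.5 and 94.5 after TAC, 84.9 and 79.0 in sham and 85.0 and 79.1 in knockdown.

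Of the 25 SR-related proteins and helicases, 18 were higher in TAC replicate 2 (median -0.17, replicate 1 minus replicate 2) and 20 in knockdown replicate 1 (median 0.18). Of the 11 kinases and importers of SR proteins, 9 were higher in TAC replicate 2 (median -0.22) but 6 in knockdown replicate 1 (median 0.0022). The 4 CLK genes of that list, whose kinases phosphorylate the tails of SR proteins and which were picked from it after the values were seen, were all higher in TAC replicate 2, in knockdown replicate 1 and in sham replicate 1. Clk1 had 112 and 96.6 CPM in sham, 71.1 and 82.2 after TAC and 132 and 80.1 in knockdown. The muscle and other regulators had median differences of 0.01 after TAC and -0.06 in knockdown and 6 and 5 of 11 genes higher in replicate 1. The hnRNP genes lay between, with 15 of 20 higher in TAC replicate 2 (median -0.12) and 16 of 20 higher in knockdown replicate 1 (median 0.06). Over all genes tested, 59.8% were higher in TAC replicate 2 (median -0.07) and 60.6% in knockdown replicate 1 (median 0.07). The hnRNP median in knockdown was thus no larger than that of all genes. In sham, 15 of 20 hnRNP genes, 9 of 11 muscle and other regulators and 19 of 25 SR-related genes were higher in replicate 1. Their medians were 0.07, 0.08 and 0.08. So were 8 of the 11 kinases and importers (median 0.13) and 54.1% of all genes tested (median 0.03). These are differences between single libraries, with no replicate behind them and no test. Of the 12 heat shock genes, 9 were higher in replicate 1 of TAC and 9 in replicate 1 of knockdown. In sham, 11 were higher in replicate 2. Over all genes tested, 40.2%, 60.6% and 45.9% were higher in those libraries. The part of heat shock genes in the differences above was not tested.

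**Figure D4:**
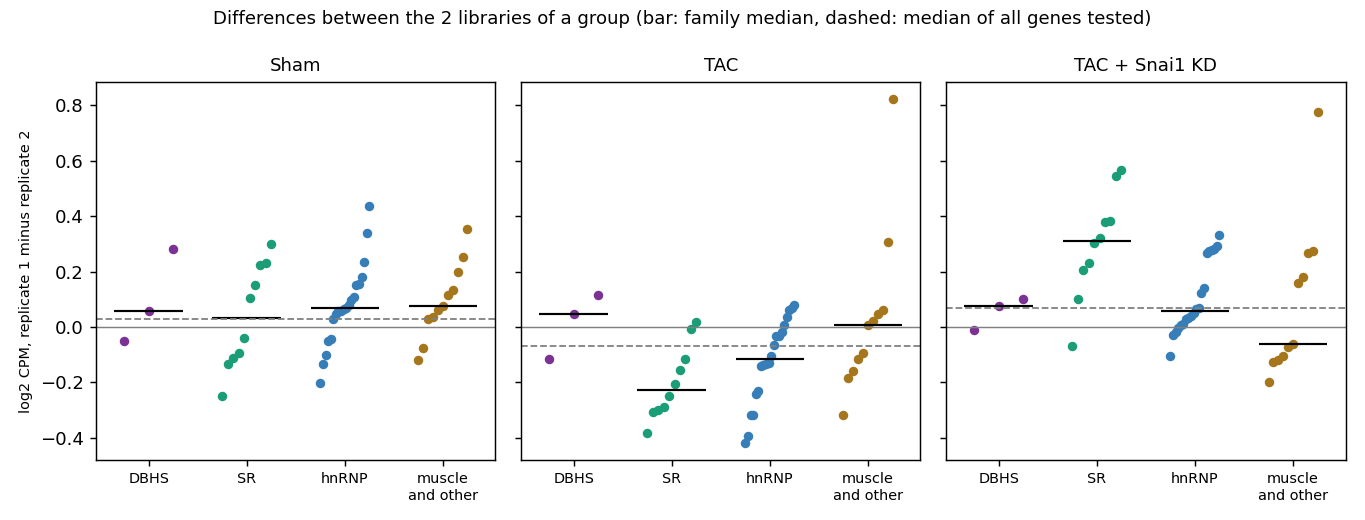
Difference in log2 CPM between replicate 1 and replicate 2 of each group for every tested gene (points), by family, with the family median as a bar and the median of all 14447 genes tested as a dashed line. SR genes lie mostly below 0 after TAC (median -0.23) and above 0 in knockdown (median 0.31).

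Other genes of the splicing machinery were described by lists. None of their members was called in any comparison. Over all genes tested, 43.8% had a negative log2 fold change in TAC against sham. Of the 11 kinases and importers of SR proteins, 8 did, with a median of -0.13. Clk1 was the largest of these at -0.44 ± 0.18, with both TAC libraries below both sham libraries, and it differed by 0.43 ± 0.18 between knockdown and TAC, where its groups overlapped (limma adjusted p = 0.999) and the value was 0.07 without knockdown replicate 1.

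Of the 12 genes of paraspeckles, speckles and their partners, 9 had a negative value in TAC against sham, with a median of -0.20. In knockdown against sham 10 did, with a median of -0.06. The shares of all genes were 43.8% and 40.4%, and both comparisons use the same sham libraries. Neat1, the RNA scaffold of paraspeckles, had 630 and 335 CPM in sham, 287 and 395 after TAC and 383 and 319 in knockdown. Sham replicate 1, also the highest library of Sfpq, stood apart and the groups overlapped (log2 -0.45 ± 0.22 after TAC, and 0.0066 without sham replicate 1). Rbm14, a protein needed to build paraspeckles, had 20.4 and 17.8 in sham, 13.9 and 14.1 after TAC and 15.2 and 14.3 in knockdown, the same order of groups as Sfpq (log2 -0.45 ± 0.17 after TAC, and -0.37 ± 0.17 for knockdown against sham, limma adjusted p = 0.570).

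Among 25 SR-related proteins and splicing helicases, 21 had a negative value in TAC against sham (median -0.20), where 43.8% of all genes did, and 22 in knockdown against sham (median -0.11), where 40.4% did. These comparisons share the sham libraries. Rsrc1, an arginine- and serine-rich splicing protein, had 17.9 and 16.9 CPM in sham, 11.6 and 11.1 after TAC and 16.7 and 14.4 in knockdown, with log2 fold changes of -0.62 ± 0.18 after TAC and 0.45 ± 0.18 for knockdown over TAC (limma adjusted p = 0.999). Ddx39a, a helicase of splicing and mRNA export, went the other way with 10.2 and 12.7 in sham, 16.1 and 19.5 after TAC and 13.6 and 18.2 in knockdown (log2 0.64 ± 0.21 after TAC, and 0.47 ± 0.21 for knockdown over sham, limma adjusted p = 0.534).

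The 49 core spliceosome genes had medians of -0.02 in TAC against sham, -0.05 in knockdown against TAC and 0.01 in knockdown against sham. The 26 tested genes of other splicing regulators had medians of -0.02, -0.06 and -0.05 in the same order. Fubp1, a protein that binds single-stranded nucleic acid, had 78.3 and 81.2 CPM in sham, 52.7 and 65.4 after TAC and 65.8 and 52.4 in knockdown, at -0.44 ± 0.14 in both comparisons with sham (limma adjusted p = 0.344 for knockdown).

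Transcripts whose exons RBM20 regulates were measured as whole genes. Their 15 members had a median of 0.03 in TAC against sham. The titin gene Ttn had 6897 and 7117 CPM in sham, 7198 and 7151 after TAC and 7533 and 6188 in knockdown. Ryr2, the calcium release channel, had 1706 and 1747 in sham, 2625 and 2091 after TAC and 1775 and 2335 in knockdown (log2 0.44 ± 0.15 after TAC). Camk2d, whose isoforms Srsf1, Rbm20 and Rbfox proteins set in mouse heart, had 224 and 191, 211 and 217, and 214 and 215 CPM.

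**Figure D5:**
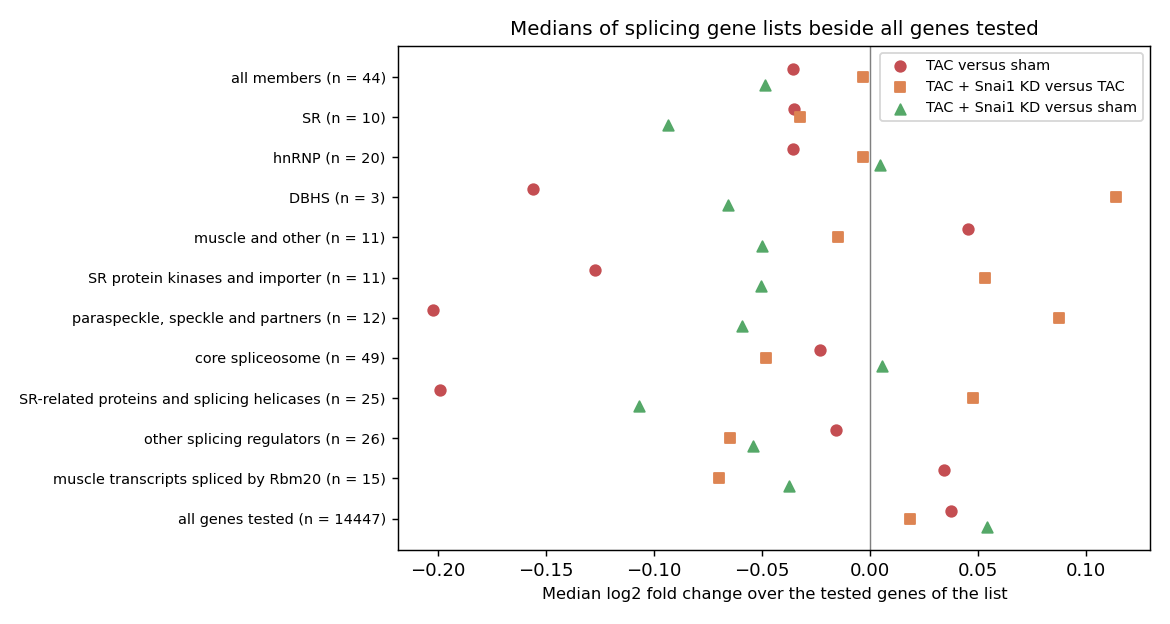
Median log2 fold change over the tested genes of each list (horizontal axis, log2) in the 3 comparisons, which share libraries pairwise. Of the lists drawn, SR-related proteins and paraspeckle genes have the lowest medians in TAC versus sham at -0.20 each, beside 0.04 over all genes tested. The 3 DBHS genes and each family are shown with the number of genes tested.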

How the data were processed

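The authors deposited a single table with 6 columns of log2 values for 19320 gene symbols. The submitters' processing notes name the build mm10 and limma, with no version. Aligner, counter, annotation and strandedness: not given in the sources used here. Antisense genes and near-identical copies may therefore share reads with a member. A SMARTer kit for mRNA served for the libraries, per the labels' protocols, which mention cultured cells beside heart tissue.

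From the values, each deposited log2 column is log2 CPM with an offset of 0.5 reads, and of 1 in the total. Undoing this and resolving the columns of a group as 60:40 and 40:60 mixtures of 2 libraries gave whole counts, within 0.05, for 99.9% of 115920 values and 0 negative values. For 12 pairings across groups the share was 20.6 to 21.1%. No source used here records such a step. Each library is numbered after the column in which it predominates.

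All libraries were fitted with 1 mean per group by limma 3.58.1 (intensity trend, R 4.3.3) on log2 CPM of these counts, with Benjamini-Hochberg adjustment over 14447 genes and a threshold of 0.05. Genes were kept when 2 libraries reached the CPM of 10 reads in the median library and all libraries held 15 reads. The fit has 3 residual and 11.3 prior degrees of freedom, and the scripts were tested on simulated data. The alternatives were other filters, scalings, added reads, variance models, a replicate block, leaving out each library, and the columns as deposited. Genes were named by a rule, which took the 14 added by name. It also took the 4 largest rises and falls of SR and hnRNP genes with at least 10 CPM in each comparison. For other lists it took the genes called or among the 2 largest rises and falls, but only some of those are described above. The genes called but not described are Nr4a1, Nr4a3, Hspa1b, Lgals3, Cd68, Ppbp and Itga2b, from the marker, heat shock and immediate early lists. Hnrnpu, Srsf2, Srsf4, Srsf6, Srsf7, Ttn and Camk2d were chosen after their values were seen. The members and lists were chosen with earlier results of these data known. Positions and exon lengths are from GENCODE M21 (GRCm38).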

Additional observations from a re-analysis of the deposited data

How the results depend on the processing

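The 1 member past the threshold in TAC against sham, Sfpq, by which the set was chosen, is no test of the gene. The count became 0 without a filter on low counts and 0 with limma-voom, and ranged from 0 to 1 when 1 library was left out, a fit in which the lone sample is assumed to vary like the other groups. Without TAC replicate 1 the 1 gene was Rbfox1. In the columns as deposited, whose spread is that between mixtures of the same libraries, 13 members were called higher and 20 lower in TAC against sham, 16 and 16 in knockdown against TAC, and 10 and 20 in knockdown against sham. Over all 19320 genes these columns gave 7638 and 6174, 6593 and 5544, and 7993 and 5676, so the member counts are not read as results. No other setting moved a count of members. Leaving out 1 library in turn changed the sign of 72 of the 132 differences of the 44 tested members. These were 22, 26 and 24 of 44 in TAC against sham, knockdown against TAC and knockdown against sham. The direction of each of those 72 thus depends on which libraries are used. In TAC against sham, the log2 fold changes of Hnrnpdl, Hnrnph3 and Neat1 were -0.17, -0.16 and -0.45 in the main fit. They ranged from -0.34 to 0.0017, -0.36 to 0.0381 and -0.90 to 0.0066. In knockdown against TAC, those of Srsf1, Srsf11 and Rbfox1 were -0.11, -0.10 and 0.24 in the main fit. They ranged from -0.27 to 0.039, -0.25 to 0.0479 and -0.17 to 0.65.

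Over all genes, TAC against sham gave 12 higher and 11 lower calls, 12 and 17 with median ratio scaling, 21 and 21 with 2 reads added, 5 and 4 with no filter, 7 and 9 with limma-voom, and 1 to 27 and 3 to 24 leaving out 1 library. Knockdown against sham gave 20 and 15, 13 and 13 with quantile normalization, 6 and 12 with limma-voom, 7 and 7 with no filter, and 1 to 25 and 2 to 25 leaving out 1 library. Over 5246 genes, deviations of replicate 1 from the group mean correlated at -0.22 between sham and TAC, 0.13 between sham and knockdown and -0.14 between TAC and knockdown. With 2 libraries a group, these values cannot decide whether the samples were paired. With the replicate block the count of members called lower in TAC stayed at 1, with 20 genes higher and 20 lower over all. With 2 libraries a group the median SE of a member's log2 fold change was 0.13, which limits what these data can resolve.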

Other observations

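A pair of rows were left out of the set because their names mark them as pseudogenes. Srsf3-ps had 9.23 and 9.99 CPM in sham, 9.40 and 11.6 after TAC and 12.4 and 10.8 in knockdown. Hnrnpa1l2-ps2 had between 9 and 17 reads in each library.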
